A study of Mus musculus with 7 samples.

Results

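Constant accessible regions inside gene bodies were analysed in freshly isolated mouse muscle stem cells (MuSCs). The ATAC-seq peak lists of 7 libraries were merged wherever peaks overlapped by at least 1 bp, and a merged region was a member when all 7 libraries had a peak in it, when it lay on chromosomes 1 to 19, and when it overlapped the span of a RefSeq protein-coding gene (mm10) but came no nearer than 1 kb to any protein-coding transcription start site (TSS). This rule gave 20860 members among 93201 merged autosomal regions, which was 39.97% of the 52187 autosomal regions called in all 7 libraries. Another 18511 (35.5%) of those constant regions lay outside genes and 12816 (24.6%) lay within 1 kb of a TSS. Members were chosen by 1 measured value, the presence of a peak in every library. Their constancy is therefore a description, and no test was made of it. Exons and introns could not be told apart, because exon models of the files' build were not used here.

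The libraries came from 4 Nedd4L-cKO and 3 WT male young mice, with 1 library of 5000 hindlimb MuSCs per mouse, sorted as ITGA7+/Hoechst+ cells lacking CD31, CD45, CD11b and SCA1. Nedd4L-cKO animals were Nedd4L fl/fl with 1 Pax7-driven Cre allele on a C57BL/6 background, so deletion was limited to cells that had expressed Pax7, and the loxP sites flank a single exon. Whether the WT mice carried a Cre or a floxed allele is not given in the sources used here. Nedd4L, encoded by Nedd4l, is a ubiquitin ligase, and the comparison asks whether its loss went with a shift in the rank or length of members. Regions gained or lost as peaks in a genotype are left out by the rule. Ranks within a library also cannot show a shift shared by all regions. The peak caller kept 14.4 to 20.1 M tags per library and called 69302 to 79158 broad peaks, of which those in members made up 27.4% to 31.4% of the autosomal ones. Nedd4L-cKO replicate 4 had the most tags and the most peaks. WT replicate 3 was the only library with lane 2 in its file header, and the other 6 libraries carried lane 1.

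In ATAC-seq, the transposase Tn5 inserts adaptors where DNA is free of nucleosomes, so a peak marks open chromatin. Accessible sites near a TSS are mostly promoters. Sites inside genes and away from the start include enhancers of the host gene or of a neighbour, alternative starts, starts of antisense or other noncoding transcripts, and insulator sites bound by CTCF. MuSCs are the Pax7-expressing stem cells of skeletal muscle. They rest beneath the basal lamina of the fibre, depend on Notch signalling to stay quiescent, and give rise to myoblasts upon injury.

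Some members held the hairpins of microRNAs. These are shown because a hairpin inside a gene can have its own regulatory region away from the host's promoter. Of 617 RefSeq microRNA hairpins that lie in protein-coding gene spans on the autosomes, 45 (7.29%) overlapped a member and 42 lay wholly inside one. A further 73 hairpins overlapped constant promoter regions and 26 overlapped constant regions outside genes. All 3 loci that encode miR-199 in the mouse lay in members, each in a dynamin gene and on the strand opposite to it. Mir199a-2 lay in Dnm3 at chr1:162216846-162219100, Mir199b in Dnm1 at chr2:32317275-32318740 and Mir199a-1 in Dnm2 at chr9:21496422-21498029. Mir26a-1 lay in Ctdspl at chr9:119031463-119032575, on the strand of its host. The miR-26a family is known for lowering the Polycomb methyltransferase Ezh2 during myoblast differentiation. Mature sequences from RefSeq (GRCm38.p6, the mm10 assembly) are written 5′ to 3′ with the seed, bases 2 to 8, in capitals. The 3p arms of the miR-199a and miR-199b loci share 1 seed and 1 sequence.
miR-199a-5p: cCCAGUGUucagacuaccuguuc
miR-199a-3p: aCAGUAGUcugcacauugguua
miR-199b-3p: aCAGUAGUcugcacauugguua
miR-26a-5p: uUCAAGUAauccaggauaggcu
miR-26a-1-3p: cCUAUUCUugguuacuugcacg

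By pileup these 4 microRNA regions ranked from the middle to the upper part of all constant regions, and by fold enrichment from the lower part to the middle. Strength is given as a percentile, the rank of a region's pileup (coverage by extended tags) or fold enrichment (pileup over the local background) among all 53245 regions called in all 7 libraries, within a library, from 0 for the weakest to 100 for the strongest. The Dnm3 region had pileup percentiles of 77.5, 75.9, 73.3 and 77.3 in Nedd4L-cKO replicates 1 to 4 and 73.9, 79.3 and 73.4 in WT replicates 1 to 3. The Dnm1 region stood at 42.7, 60.0, 44.4 and 34.9 in Nedd4L-cKO and 45.3, 43.8 and 48.4 in WT, and the Dnm2 region at 69.95, 78.8, 57.2 and 61.0 and 62.8, 70.2 and 68.2. The Ctdspl region stood at 71.7, 66.7, 83.2 and 72.8 in Nedd4L-cKO and 78.9, 78.8 and 72.1 in WT. In all 4 regions the genotypes overlapped by pileup, and the Dnm1 region was the weakest by pileup in each library. By fold enrichment the median percentiles over libraries were 48.7 (Dnm3), 22.8 (Dnm1), 36.7 (Dnm2) and 13.8 (Ctdspl). The 42 members that held a hairpin spread more widely, with median pileup percentiles from 4.58 (Mir5710) to 99.3 (Mir3109).

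Members also held starts of long noncoding RNAs (lncRNAs), and windows around such starts are shown because they give the sequence of members in the build of the files. In all, 309 RefSeq lncRNA starts of 271 genes fell in 272 members (1.30% of members). The 309 were 12.04% of the 2567 lncRNA starts that lie inside protein-coding spans and over 1 kb from a protein-coding TSS. Of the 309 starts, 292 were on the strand opposite to the host gene. The share on the opposite strand among the 2567 was not computed, so the 292 are no result about members. Members with an lncRNA start had a median length of 1422 bp against 1216 bp for the others, a median pileup percentile of 51.9 against 41.7, and a median fold percentile of 40.96 against 41.4. Windows of 300 bases, 250 before to 50 after the start, were searched on both strands for CAGCTG, an E-box to which the myogenic factor MyoD binds, and for TGANTCA, the AP-1 motif; occurrences of the motifs can share at most a CA. CAGCTG stood in 25.2% of the 309 windows, in 17.6% of 11312 autosomal lncRNA windows and in 16.3% of all 32851 windows of the table. TGANTCA stood in 10.0%, 9.25% and 7.81%. A match describes the letters and says nothing of binding. The 3 windows with CAGCTG whose members had the highest pileup percentile are printed 5′ to 3′ on the lncRNA's strand, with CAGCTG in capitals, from RefSeq on GRCm38.p6. Gm38597 starts in Afap1l2 (chr19:56977551-56977850, plus strand), Gm39000 in Vsig10l (chr7:43465938-43466237, minus strand) and Gm40103 in Notch2 (chr3:98026059-98026358, minus strand).
Gm38597: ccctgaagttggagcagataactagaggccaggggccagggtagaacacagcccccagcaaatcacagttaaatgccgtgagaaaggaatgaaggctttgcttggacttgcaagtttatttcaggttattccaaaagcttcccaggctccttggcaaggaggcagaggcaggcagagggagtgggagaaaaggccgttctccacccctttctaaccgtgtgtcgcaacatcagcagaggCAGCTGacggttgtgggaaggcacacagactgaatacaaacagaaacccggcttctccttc
Gm39000: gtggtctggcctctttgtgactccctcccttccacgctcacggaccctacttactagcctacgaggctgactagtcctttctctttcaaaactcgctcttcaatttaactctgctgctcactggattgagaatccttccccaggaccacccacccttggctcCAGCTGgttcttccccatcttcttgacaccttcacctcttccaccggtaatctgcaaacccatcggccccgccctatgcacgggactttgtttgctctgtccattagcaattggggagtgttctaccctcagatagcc
Gm40103: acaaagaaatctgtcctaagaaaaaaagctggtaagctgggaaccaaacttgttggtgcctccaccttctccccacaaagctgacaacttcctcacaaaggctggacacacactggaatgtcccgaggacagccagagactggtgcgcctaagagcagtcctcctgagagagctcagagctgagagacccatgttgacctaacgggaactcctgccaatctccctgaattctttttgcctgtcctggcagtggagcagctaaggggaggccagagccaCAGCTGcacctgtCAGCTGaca

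All 3 of these members were among the strongest by pileup in every library. The Afap1l2 region, chr19:56976563-56978005, had pileup percentiles of 96.4, 91.1, 96.2 and 97.9 in Nedd4L-cKO and 98.1, 96.8 and 93.9 in WT. The Vsig10l region, chr7:43464793-43466728, had 96.4, 94.8, 95.3 and 95.9 in Nedd4L-cKO and 96.2, 95.7 and 95.2 in WT. The region in Notch2, which encodes a receptor that holds MuSCs in quiescence, spanned chr3:98024226-98026679 and had 93.9, 91.3, 97.4 and 95.2 in Nedd4L-cKO and 96.4, 93.9 and 96.6 in WT. The genotypes overlapped in all 3 regions. By fold enrichment the Notch2 region ranked low, at 13.3, 8.99, 13.2 and 5.96 in Nedd4L-cKO and 7.39, 7.56 and 14.6 in WT.

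Members were weaker and shorter than constant promoter regions and close to constant intergenic regions. The median member pileup percentile was 41.9 to 42.3 in the 7 libraries, 38.7 ± 0.774 points (SD, n = 7 libraries) below that of promoter regions. The median fold percentile was 41.2 to 42.3, 27.3 ± 1.83 points below promoters. The called length in a member, summed over its peaks in a library, had a median of 856 to 964 bp, 423 ± 15.9 bp below promoters. Against intergenic regions, members ranked 3.33 ± 0.538 points higher by pileup and 6.03 ± 0.487 points lower by fold enrichment. Each of these 5 differences had the same sign in 7 of 7 libraries and gave p = 0.0156 in a two-sided exact sign-flip permutation test, the smallest p that 7 libraries allow, and 0.0188 after Benjamini-Hochberg adjustment over 6 tests. The called length exceeded that of intergenic regions by 2.29 ± 7.30 bp, between -9 and 10 bp in single libraries, with p = 0.438 by the exact permutation test. That difference was smaller than its spread between libraries. Class was set by position alone, and a peak in all 7 libraries was asked of all 3 classes.

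**Figure D1:**
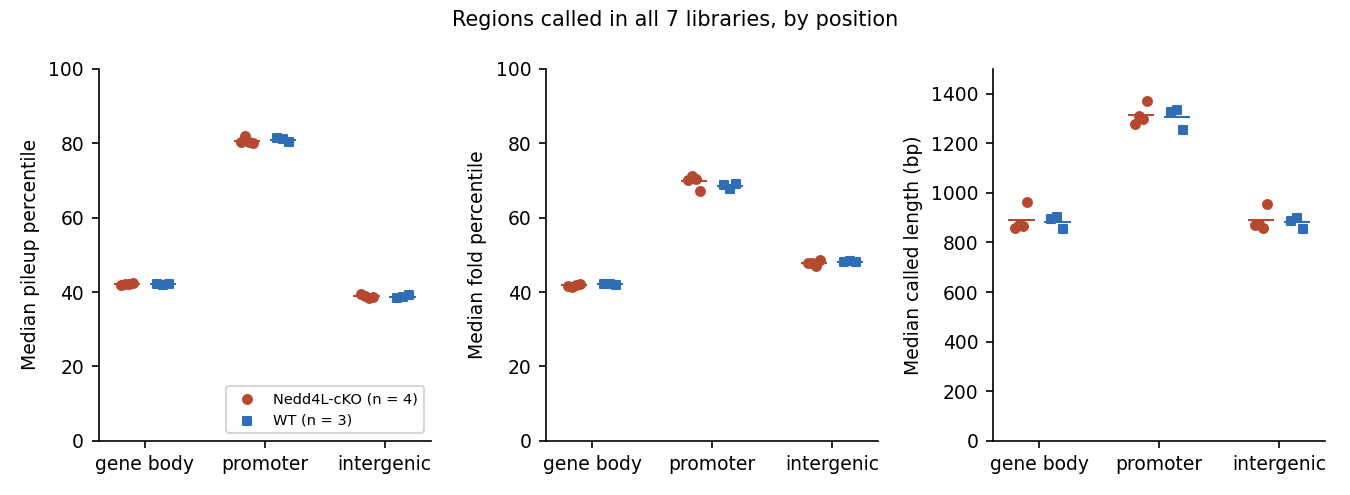
Median pileup percentile, median fold percentile and median called length (bp) of constant autosomal regions in gene bodies, at promoters and outside genes; each point is 1 library and lines mark the mean of the Nedd4L-cKO and of the WT libraries. Gene-body members sit between 41.9 and 42.3 by pileup in all 7 libraries, far below promoters, and slightly above intergenic regions by pileup but below them by fold.

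The opposite signs against intergenic regions went with the local background of the peak caller. Fold enrichment divides the pileup by a background taken from the surrounding 10000 bp or the whole genome, so the ratio of pileup to fold gives the background a peak was set against. Its median was 3.73 to 5.08 over members, 3.39 to 4.52 over intergenic regions and 6.996 to 9.22 over promoter regions in the 7 libraries. Its part in the opposite signs was not tested.

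Members varied widely among themselves. The merged regions were 254 to 5664 bp long with a median of 1218 bp, and 10% were under 763 bp and 10% over 1964 bp. Together they covered 27.2 Mb. The median pileup percentile over libraries spanned 9.77 to 80.1 from the 10th to the 90th percentile of members, and the median fold percentile 9.55 to 80.6. Only 395 members (1.89%) ranked above 80 on both scales, against 23.9% of promoter regions and 2.501% of intergenic ones. High pileup with low fold, above 80 and below 20, was found in 680 members (3.26%), and the reverse in 0. Above 80 by fold were 10.5% of members and 14.2% of intergenic regions.

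The position of a single member in the ranking moved between libraries. The SD of its fold percentile over the 7 libraries had a median of 10.2 points, against 5.22 for promoter regions and 10.6 for intergenic ones. For pileup the medians were 6.12, 2.86 and 6.20 points. Within a library, 94.3% to 98.5% of members contained at least 1 narrow peak called at the stricter threshold inside the broad peak, and 10.6% to 12.2% contained 2 or more. More than 1 broad peak of a library fell in 1.79% to 2.55% of members.

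At the edges of the rule, regions inside and outside looked as follows. Gene-body regions with a peak in 6 of 7 libraries numbered 3135, 7.37% of all gene-body regions, with a median length of 891 bp, a median pileup of 9.84 and a median fold enrichment of 3.16, against 16.7 and 3.799 for members. In all, 49.1% of merged gene-body regions were called in 7 libraries, against 50.6% outside genes and 90.7% at promoters, and 7403 gene-body regions were called in 1 library. The 251 members whose edge was 1 to 1.5 kb from a TSS had a median length of 1251 bp, a pileup of 24.6 and a fold enrichment of 3.52. The 283 promoter regions whose edge was 0.5 to 1 kb from a TSS had 1207 bp, 23.8 and 3.74.

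Constant regions were denser inside gene spans than outside them. Per 100 kb of territory over 1 kb from a TSS, 2.16 regions had their midpoint inside spans (20648 regions in 953.9 Mb) and 1.28 outside. Assembly gaps and other sequence where no peak can be called were not taken out of the territory, and their part in the contrast was not tested. The density inside was higher on 19 of 19 chromosomes, at 1.70 to 2.76 per 100 kb with a median of 2.263, against 0.858 to 1.93 outside. Chromosome 11 was densest inside gene spans and chromosome 14 sparsest. Beyond 2 kb, density rose with distance from the nearest TSS to a plateau and then fell: 2.05 per 100 kb inside spans at 2 to 5 kb, 2.71 at 5 to 10 kb, 2.72 at 10 to 20 kb, 1.77 at 100 to 200 kb and 0.897 beyond 200 kb. Outside spans the same bins held 1.54, 2.33, 2.39, 1.26 and 0.432. The bin from 1 to 2 kb, with 0.670 and 0.616, is lowered by the rule, which removes any region with an edge within 1 kb of a TSS.

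**Figure D2:**
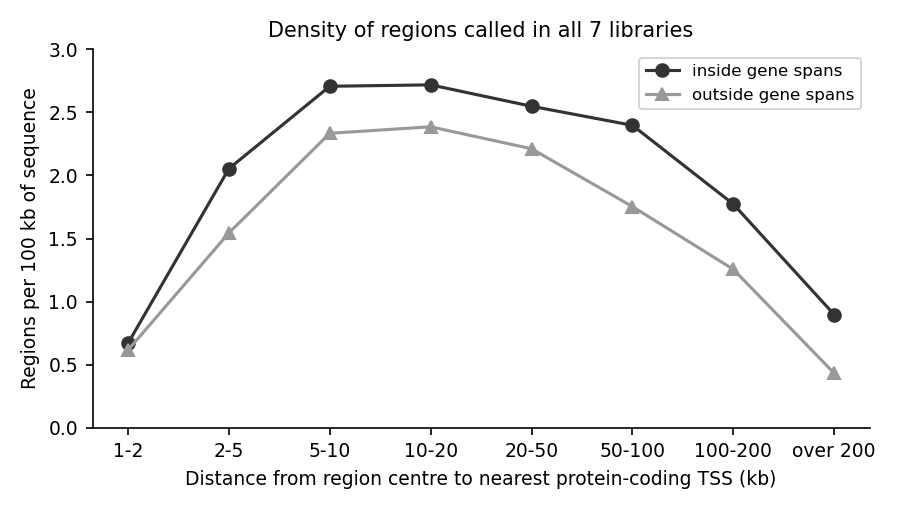
Constant regions per 100 kb against distance to the nearest protein-coding TSS (kb, in bins), inside and outside protein-coding gene spans on chromosomes 1 to 19. The line for gene spans lies above the other in every bin, peaks at 2.72 per 100 kb between 10 and 20 kb and drops to 0.897 beyond 200 kb.

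The median member lay 29419 bp from the nearest TSS, with 10% within 5356 bp and 10% beyond 138042 bp, and the farthest was 1412776 bp away. Constant intergenic regions lay at a median of 42825 bp. Position along the gene was read for 15487 members. Each overlapped 1 gene span alone, of at least 50 kb and known strand, and had its midpoint inside it. The first 10% of the gene from its 5′ end held 7.57% of these members, and each further 10% held 9.72% to 11.1%. The first share is lowered by the rule, which leaves out regions within 1 kb of the start. Members were often close to another: the median gap to the next member on the chromosome was 16831 bp, 17.8% of gaps were under 5 kb and 54.2% under 20 kb. A single gene span held 98.8% of members, and 258 lay in overlapping spans of 2 or more genes.

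Of 20661 autosomal protein-coding genes, 6737 (32.6%) held at least 1 member and 3195 held exactly 1. The 1297 genes (6.28%) with 5 or more members held 12025 members (57.6%). These genes were long, with a median span of 152 kb against 17.5 kb for all genes, and carried 0.223 to 20.2 members per 100 kb with a median of 5.52. At a given length, genes whose own promoter was a constant peak held more members. Between 100 and 200 kb, 80.5% of genes with a promoter peak in all 7 libraries held a member, at 3.08 per 100 kb, against 50.6% and 1.27 for genes with a promoter peak in none. Between 20 and 50 kb the shares were 44.7% and 26.8%, with 2.51 and 1.41 per 100 kb. Above 200 kb they were 86.5% and 55.5%, with 2.02 and 0.714.

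The 10 genes with most members per 100 kb, among those with 5 or more, were Mxra7, Plxnd1, Pak4, Chrdl2, Lasp1, Olfml2a, Agfg2, Lmna, Chst3 and Myh9, at 17.2 to 20.2 per 100 kb. Their products have varied roles. Myh9 encodes non-muscle myosin heavy chain IIA, Lasp1 an actin-binding LIM and SH3 protein, Pak4 a kinase downstream of Cdc42, Plxnd1 a semaphorin receptor, Chst3 a chondroitin sulfotransferase and Olfml2a a secreted olfactomedin-domain protein. Chrdl2 encodes a secreted BMP antagonist and is a marker of quiescent MuSCs, Lmna encodes the nuclear lamins A and C, and Agfg2 a protein related to Arf GTPase-activating proteins. Mxra7 (chr11:116803400-116828127, minus strand) led with 5 members in 24.7 kb, and Plxnd1 (chr6:115954811-115995339, minus strand) followed with 8 in 40.5 kb. Myh9 (chr15:77760585-77842175, minus strand) had the most members of these genes, 14 in 81.6 kb. All 10 genes had a promoter peak in all 7 libraries.

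**Figure D3:**
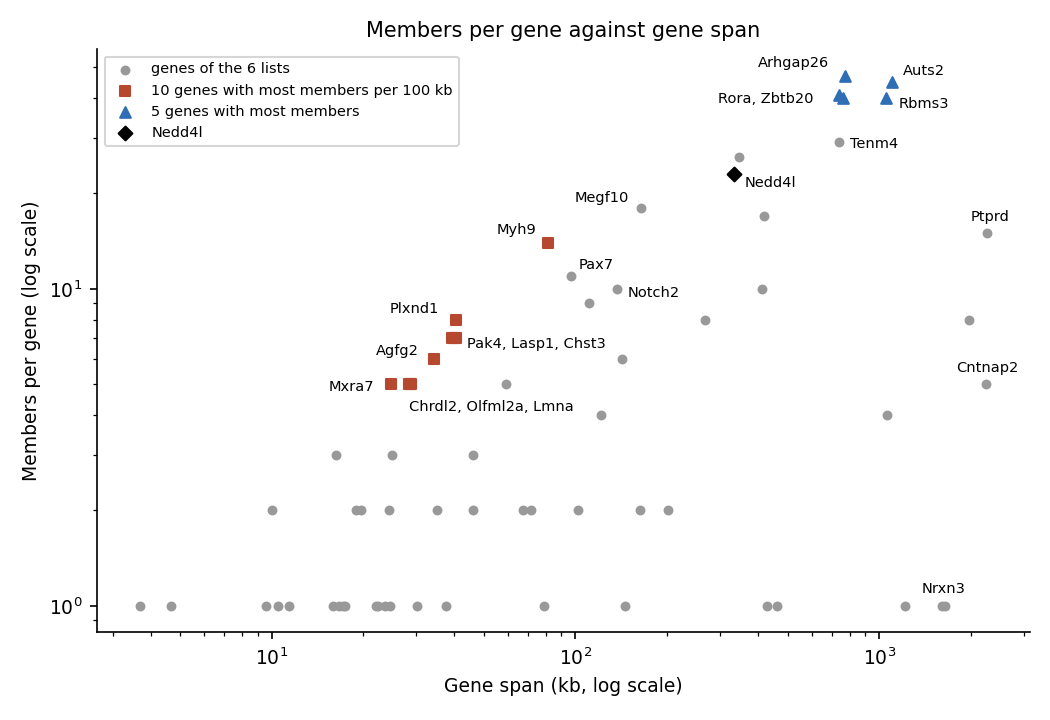
Members per protein-coding gene against gene span (kb), both on log axes, for the 10 densest genes (squares), the 5 genes with most members (triangles), Nedd4l (diamond) and genes of the 6 lists (circles); genes with 0 members are not drawn. Mxra7 leads by density with 5 members in 24.7 kb, and Arhgap26 leads by number with 47.

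Members of these dense genes ranked low by fold enrichment, with gene medians between 0.0451 and 35.3 over the libraries, and in 9 of the 10 genes, Agfg2 excepted, the median pileup percentile was above 60 in every library. The 5 members of Lmna (chr3:88481148-88509932, minus strand) had median pileup percentiles of 96.6, 96.3, 95.6 and 97.1 in Nedd4L-cKO and 95.7, 97.0 and 95.6 in WT. Their fold percentiles were 0.0751, 0.214, 0.0601 and 0.0582 in Nedd4L-cKO and 0.0451, 0.0864 and 0.385 in WT, so these members were near the top of one scale and at the bottom of the other in every library. For Mxra7 the pileup medians were 88.4, 88.9, 94.0 and 94.5 in Nedd4L-cKO and 92.6, 90.5 and 86.4 in WT, with fold medians of 2.70 to 6.48. For Plxnd1 they were 90.6, 94.1, 95.4 and 96.9 and 94.8, 92.6 and 93.8, with fold medians of 0.742 to 2.85. Myh9 stood lower by pileup, at 65.8, 61.0, 68.0 and 67.9 in Nedd4L-cKO and 69.8, 66.0 and 65.8 in WT. The genotypes overlapped in each of these 4 genes on both scales. Chrdl2 and Lasp1 were the exceptions among the 10. The Chrdl2 pileup medians were 73.2, 81.2, 76.8 and 79.7 in Nedd4L-cKO and 71.2, 69.9 and 72.3 in WT (77.7 ± 3.52 and 71.1 ± 1.20, SD, n = 4 and 3), and the groups did not overlap. The Lasp1 fold medians were 17.9, 11.1, 12.4 and 12.1 in Nedd4L-cKO and 5.91, 5.91 and 7.19 in WT (13.4 ± 3.07 and 6.34 ± 0.738), also without overlap. On the other scale the groups of both genes overlapped. By fold, Chrdl2 had 5.32 to 8.38 in Nedd4L-cKO and 3.71 to 6.14 in WT. By pileup, Lasp1 had 73.5 to 81.4 in Nedd4L-cKO and 75.3 to 77.0 in WT. Over all 1297 genes with 5 or more members, such gene medians did not overlap between the genotypes in 3.78% of genes by pileup and in 4.63% by fold, against 1 of 15 named genes on each scale.

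The contrast of high pileup and low fold enrichment followed member density across genes. Members in genes with 5 or more were split into 4 groups of like size by their gene's density. In the sparsest group (3023 members, 0.223 to 3.81 per 100 kb) the median pileup percentile was 31.1 to 32.7 over the 7 libraries and the median fold percentile 46.97 to 50.01. The next groups had 39.1 to 39.9 and 45.6 to 46.9 by pileup, and 42.0 to 44.6 and 37.5 to 39.4 by fold. In the densest (2999 members, 8.14 to 20.2 per 100 kb) the pileup percentile was 59.6 to 60.7 and the fold percentile 24.4 to 29.4. Ranges of neighbouring groups did not overlap on either scale, and every library of both genotypes had the same order. The ratio of pileup to fold, the local background, rose from 2.96 to 4.02 in the sparsest group to 6.09 to 8.46 in the densest. Background windows of 10000 bp reach the next member where members lie close together, and the part of this in the order was not tested.

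**Figure D4:**
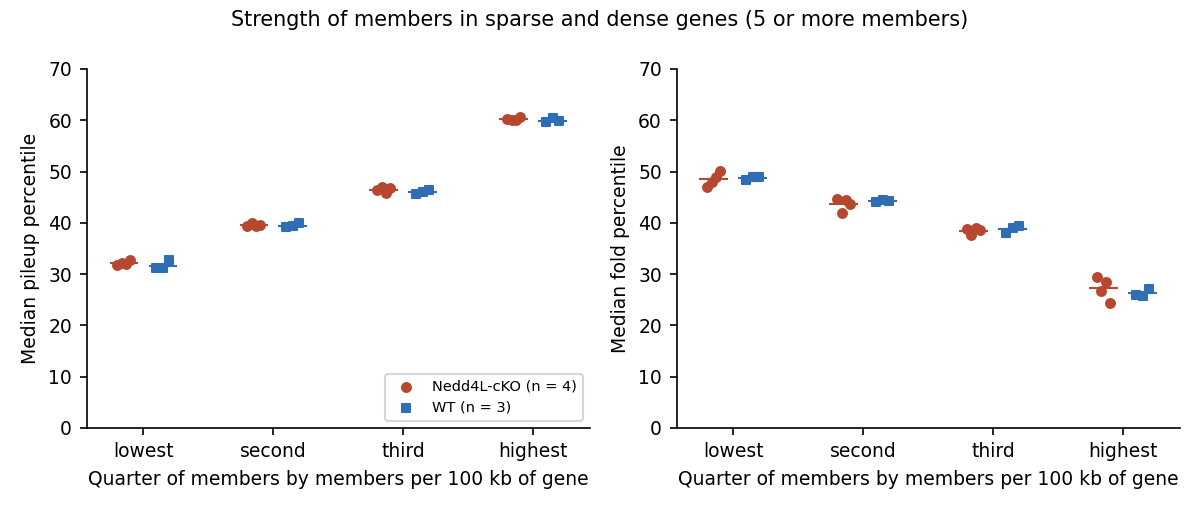
Median pileup percentile and median fold percentile of members in genes with 5 or more, in 4 groups by their gene's member density; points are libraries and lines are group means of Nedd4L-cKO and WT. From the sparsest to the densest group pileup climbs from 31.1-32.7 to 59.6-60.7, and fold falls from 46.97-50.01 to 24.4-29.4, in all 7 libraries.

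By number, the leading genes were Arhgap26 (47 members in 775 kb), Auts2 (45 in 1106 kb), Rora (41 in 735 kb), Rbms3 (40 in 1057 kb) and Zbtb20 (40 in 759 kb). Arhgap26 encodes a RhoA GTPase-activating protein, Auts2 a nuclear protein found with a Polycomb complex, Rora a retinoic acid receptor-related orphan receptor, Rbms3 an RNA-binding protein and Zbtb20 a zinc finger repressor. By pileup, the medians of Arhgap26, Auts2 and Rbms3 were 26.8 to 39.7, below the 41.9 to 42.3 of all members in every library. The Auts2 medians were the lowest of the 5 genes, at 36.1, 33.7, 27.2 and 26.8 in Nedd4L-cKO and 27.3, 32.2 and 33.1 in WT. The Arhgap26 pileup medians were 38.0, 35.2, 35.2 and 35.3 in Nedd4L-cKO and 31.1, 38.3 and 36.2 in WT. For Zbtb20 they were 43.3, 49.2, 43.0 and 46.2 in Nedd4L-cKO and 49.4, 41.3 and 42.4 in WT, and the genotypes overlapped in all 3 genes. The order by number rested on the calling threshold and the TSS set: Auts2 led with 17 members at −log10 q of at least 5 and with 31 when peaks had to cover 50% of a region, and Rora led with 41 among genes with a RefSeq start, which leaves out Arhgap26 and the rest of chromosome 18. Single members of these genes ranged from 0.395 in Auts2 to 98.0 in Zbtb20. Length alone did not give many members: of 215 genes of at least 500 kb, 28 held 20 or more and 56 held 0. The longest genes with 0 were Lrp1b (2058 kb), a lipoprotein receptor of neurons, Dpp10 (1514 kb), a potassium channel partner, and Gpc5 (1433 kb), a glypican.

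Genes known from MuSCs were rich in members, in a list chosen with earlier results of these data known. In a list of 18 MuSC genes, 15 held a member and the list held 93, or 6.31 per 100 kb of its spans, against 2.12 per 100 kb and 32.6% of genes over all protein-coding genes. All 18 promoters were constant peaks, and genes with such promoters held 2.02 to 3.08 members per 100 kb across classes of gene length. Tenm4, a teneurin adhesion protein, held 29 and Megf10, a receptor that keeps satellite cells proliferating, held 18. Myf5, the early myogenic factor, Cdh15, which encodes M-cadherin, and Cxcr4, the chemokine receptor, held 0, in spans of 4.02 to 19.02 kb. The list's members had a median pileup percentile of 52.9 and a fold percentile of 25.7, against 41.8 and 41.4 over members of all genes. The Tenm4 pileup medians were 29.6, 26.8, 31.7 and 24.3 in Nedd4L-cKO and 34.9, 32.9 and 31.7 in WT. Those of Megf10 were 46.7, 41.2, 57.4 and 57.6 in Nedd4L-cKO and 57.6, 50.9 and 46.7 in WT. Megf10 overlapped widely between the genotypes, and the Tenm4 groups met at 31.7.

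Pax7, which encodes the transcription factor that defines MuSCs, held 11 members in its 96.5 kb span (chr4:139737059-139833530, minus strand), 11.4 per 100 kb, and ranked at place 87 by density. Their median pileup percentiles were 56.5, 58.2, 64.5 and 61.4 in Nedd4L-cKO and 63.8, 61.0 and 57.2 in WT. By fold enrichment they were 11.9, 8.32, 10.2 and 11.97 in Nedd4L-cKO and 6.86, 9.20 and 13.4 in WT. The groups overlapped on both scales, and in the fold percentile of each of the 11 members, where over all constant regions 2.67% had Nedd4L-cKO wholly above WT and 2.09% wholly below. One Pax7 member was the second longest of all members, at 4550 bp (chr4:139743346-139747895). It lay 85073 bp from the TSS, toward the 3′ end of the gene, with pileup percentiles of 85.6, 76.9, 83.01 and 84.9 in Nedd4L-cKO and 84.3, 78.3 and 79.6 in WT.

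The Notch pathway list, receptors, ligands, coactivators and targets, had a member in 12 of 13 genes, 53 members in all and 4.11 per 100 kb. Among the coactivators, Maml3 held 17 and Maml2 held 10, and among the receptors Notch2 held 10, Notch1 3 and Notch3 2. The ligands Jag1, Jag2 and Dll1 held 2, 1 and 1, the nuclear effector Rbpj held 2, and of the targets Heyl held 3, Hey1 1 and Hes1 0. Notch2 and Maml3 differed in rank. The Notch2 pileup medians were 70.5, 70.3, 74.9 and 74.4 in Nedd4L-cKO and 74.7, 72.7 and 66.5 in WT. The Maml3 medians were 28.9, 25.8, 18.7 and 18.9 in Nedd4L-cKO and 27.2, 23.1 and 27.2 in WT. The genotypes overlapped in both genes, while each library put Notch2 above Maml3.

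Myogenic factors had a member in 8 of 15 genes, 47 in all and 4.03 per 100 kb. Tcf4 led with 26 and Tcf12 followed with 8. Both encode E proteins, which pair with MyoD family factors on E-boxes, and the third E protein gene, Tcf3, held 2, fewer than the 6 of Eya1. The MyoD family genes Myod1, Myog and Myf6 held 0 in spans of 1.88 to 2.62 kb, where the 1 kb rule leaves little room for a member. Tcf4, like Megf10 and Arhgap26, is on chromosome 18, where only the span's 5′ end stood for the TSS, so members at other starts could not be told apart. Muscle fibre genes had a member in 11 of 15 genes and held 18 members, 1.93 per 100 kb. Over all protein-coding genes the values were 32.6% of genes and 2.12 per 100 kb, so the density of fibre genes was near that of all genes. Ryr1, the calcium release channel, held 4, and Neb, Cacna1s, Actn2 and Casq1 held 2 each. Neuronal adhesion and synapse genes had a member in 9 of 12, yet at 0.226 per 100 kb they were sparse for their length, with 37 members of which Ptprd held 15 and Dlg2 held 8. Lrp1b, Grm7 and Gabrb1 held 0. The 10 ribosomal protein genes, all with constant promoters, held 0, and their median span was 3.82 kb. The lists are described by these counts and were not tested.

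Markers of other cell types held fewer members than those of MuSCs, and were not absent. Over all genes, 13376 of 20661 had a constant promoter peak and 6737 (32.6%) held a member. Of 10 MuSC markers, 10 had a constant promoter peak and 8 held a member, 43 members in all. Among 10 immune markers 1 had a constant promoter and 2 held a member, with 3 in Spi1 and 1 in Csf1r, and the other 8 genes, Ptprc (CD45) and Itgam (CD11b) among them, held 0. Endothelial markers had 6 of 10 promoters and 5 of 10 genes with members (25 in all), of which Erg held 9 and Tek 6. Pecam1, which encodes the CD31 that the sort excluded, held 4 members, at 6.55 per 100 kb, with a promoter peak in 0 libraries. Fibro-adipogenic markers had 5 of 10 and 3 of 10 (9), mural markers 7 of 8 and 6 of 8 (16), and Schwann markers 5 of 8 and 3 of 8 (5). Per 100 kb of span, MuSC markers held 9.14 members and immune markers 0.860, against 2.12 over all genes. Fibro-adipogenic markers held 4.64, mural 4.47, endothelial 2.995 and Schwann 2.62, all above the value of all genes. Few genes carried some of these sums. Megf10 held 18 and Pax7 11 of the 43 MuSC members, Dpt 4 of the 9 fibro-adipogenic ones and Ngfr 3 of the 5 Schwann ones. The median density per gene was 10.4 for MuSC markers, 4.02 for mural, 0.910 for endothelial, and 0 for the other lists and for all genes. A share of other cells in the sort and accessibility of these genes in MuSCs cannot be told apart here.

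The 3 strongest members by fold enrichment were short, while the 2180 members above the 80th percentile by fold had a median length of 1222 bp, close to that of all members. A 426 bp region in Chl1, a neural adhesion gene (chr6:103648958-103649383), had fold enrichments of 17.9 to 18.9 over the libraries. A 550 bp region in Cdk8, the Mediator kinase (chr5:146260898-146261447), had 14.3 to 14.8, and a 490 bp region in Gphn, which encodes gephyrin (chr12:78350777-78351266), had 12.3 to 13.4. By pileup, the Cdk8 and Chl1 regions and a 729 bp region in the overlapping genes Cmss1 and Filip1l (chr16:57391037-57391765) led. No list of artifact-prone regions was removed here, so how far these short regions reflect open chromatin was not tested. The Gphn region was the exception by pileup, with percentiles of 80.1, 90.7, 85.0 and 79.7 in Nedd4L-cKO and 79.5, 84.5 and 85.6 in WT. The longest members behaved differently. The longest, 5664 bp in Adamts2, which encodes a procollagen protease (chr11:50669371-50675034), had pileup percentiles of 98.2 to 99.4 and fold percentiles of 0.319 to 1.58. The region in Dtx4, an E3 ligase of the Deltex family (chr19:12485106-12489611, 4506 bp), had pileup percentiles of 91.0, 89.7, 94.96 and 91.4 in Nedd4L-cKO and 88.8, 94.5 and 90.1 in WT, with fold percentiles of 2.10 to 16.5.

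For the comparison of genotypes, the targeted gene was examined first. Nedd4l (chr18:64884480-65217826, plus strand) held 23 members in 333 kb, 6.90 per 100 kb, with region lengths of 589 to 3149 bp. A peak within 1 kb of the Nedd4l span's 5′ end was found in 0 libraries, and no RefSeq start was at hand for genes of chromosome 18. Whether some of these members are promoters of the gene, such as the one 2317 bp from that end, was not tested. Their median fold percentiles were 33.9, 34.0, 31.4 and 34.8 in Nedd4L-cKO and 38.4, 33.1 and 36.4 in WT, and their pileup medians were 45.5, 45.6, 44.9 and 49.1 and 45.9, 48.8 and 50.04. The groups overlapped on both scales, and 22 of the 23 members had overlapping fold percentiles. Over all regions called in all 7 libraries, Nedd4L-cKO lay wholly above WT in 2.67% and wholly below in 2.09%. The lowest unadjusted p among them in limma, the linear model fitted across all regions, was 0.0307. Peak lists do not show whether the floxed exon was recombined, so they are no check of the genotype labels.

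Over all members, no difference between the genotypes exceeded the SD of the Nedd4L-cKO libraries, while the fold difference exceeded the SD of the WT libraries. The median pileup percentile was 42.2 ± 0.177 in Nedd4L-cKO (SD, n = 4) and 42.1 ± 0.175 in WT (n = 3), a difference of 0.1097 points with p = 0.457 in a two-sided exact permutation test over 35 splits. The median fold percentile was 41.8 ± 0.420 in Nedd4L-cKO and 42.1 ± 0.164 in WT, a difference of -0.296 points (exact permutation p = 0.314). The median called length was 890 ± 49.5 bp and 884 ± 24.7 bp, and the covered length 20.0 ± 1.10 Mb and 19.9 ± 0.547 Mb (exact permutation p = 0.914 for both). All 4 had an adjusted p of 0.914 by the exact test, and the smallest p the design allows is 0.0286. The sign of both length differences rested on single libraries. Without Nedd4L-cKO replicate 4, whose members were longest, the differences (Nedd4L-cKO minus WT) were -19 bp in called length and -0.410 Mb in covered length. Within lane 1, that is without WT replicate 3, they were -8.5 bp and -0.176 Mb.

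Region by region, limma on normal scores of the within-library fold ranks called 0 of 20860 members at an adjusted p under 0.05, with a background of 0% over all 53245 regions. At an unadjusted p under 0.05 there were 947 members (4.54%), 407 higher and 540 lower in Nedd4L-cKO, against 3.98% of all regions. In 480 members (2.30%) all 4 Nedd4L-cKO libraries ranked above all 3 WT libraries, against 2.67% of all regions, and in 470 (2.25%) they ranked below, against 2.09%. These shares lie near the background and are no result about members. Differences from -0.48 to 0.44 in normal score covered the 5th to 95th percentile of members. Peaks present in a single genotype are outside this comparison, since members had a peak in every library.

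The members with the lowest p in each direction are given as values, since none passed adjustment (adjusted p = 1 for each by limma after rounding). They were picked on the same fold ranks, so groups lying apart by fold is part of the choice. Higher in Nedd4L-cKO by rank were regions in Pfkfb4, a regulator of glycolysis, Dgkg, a diacylglycerol kinase, Ap2a1, a subunit of the AP-2 clathrin adaptor, Otud7b, a deubiquitinase, and Col6a6, a collagen VI chain. The Dgkg region (chr16:22633187-22633838) had fold percentiles of 36.4, 63.7, 44.4 and 41.7 in Nedd4L-cKO and 11.9, 13.2 and 11.3 in WT. The normal score difference was 1.08 ± 0.20 (SE; limma unadjusted p = 0.000415, n = 4 and 3). The Otud7b region (chr3:96147807-96148669) had 64.2, 62.4, 53.5 and 59.6 in Nedd4L-cKO and 36.2, 27.7 and 26.4 in WT. The groups were apart in both regions, and both had pileup percentiles under 23 in every library, so these were weak peaks.

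Lower in Nedd4L-cKO were regions in Tcf12, an E protein that pairs with MyoD, Arhgef3, a RhoA exchange factor, Exoc6b, an exocyst subunit, Kdm1a, the histone demethylase LSD1, and Rxrg, a retinoid X receptor. The Kdm1a region (chr4:136569642-136570813) ranked high in all libraries, at 82.5, 89.7, 80.7 and 70.6 in Nedd4L-cKO and 98.5, 99.5 and 96.6 in WT, a normal score difference of -1.29 ± 0.24 (limma unadjusted p = 0.000403, n = 4 and 3). The Exoc6b region (chr6:84863798-84864404) had 26.3, 14.5, 15.9 and 25.4 in Nedd4L-cKO and 50.9, 60.2 and 68.4 in WT. The Rxrg region (chr1:167636909-167638401) had 34.9, 30.6, 31.8 and 33.4 in Nedd4L-cKO and 56.4, 69.3 and 67.5 in WT. The genotypes did not overlap in these 3 regions by fold. By pileup the Kdm1a groups did overlap, with 54.8, 64.0, 49.8 and 51.4 in Nedd4L-cKO and 60.2, 69.8 and 64.0 in WT.

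**Figure D5:**
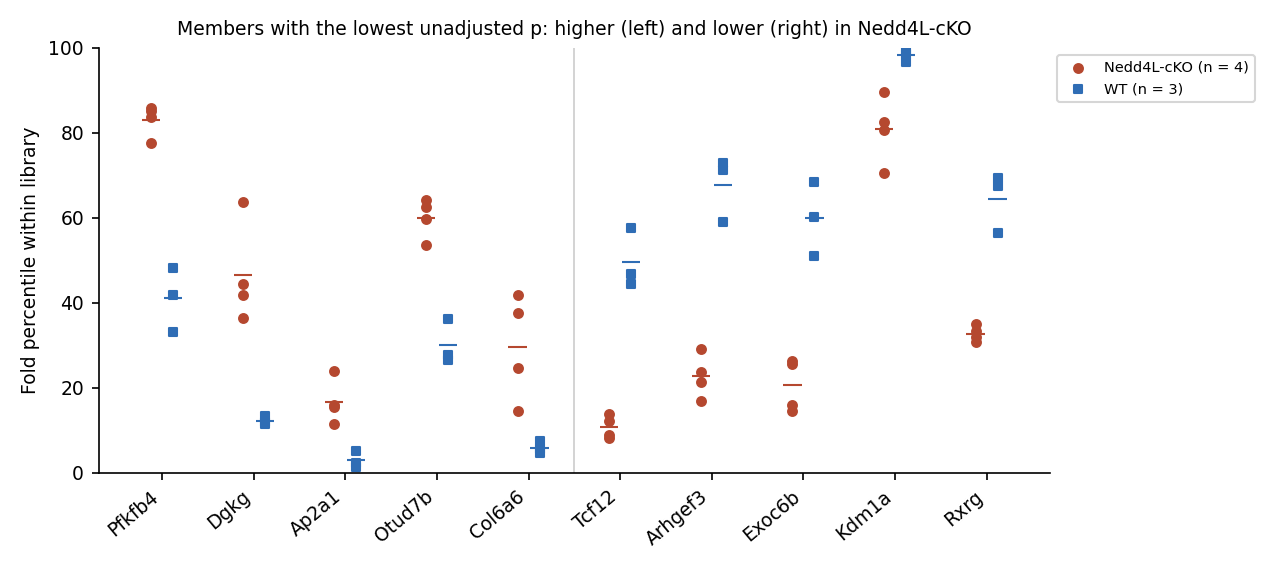
Fold percentile in each library of the 10 members named as lowest in p by limma, 5 higher and 5 lower in Nedd4L-cKO, with Nedd4L-cKO and WT libraries drawn as separate symbols. In each of the 10 regions the 4 Nedd4L-cKO points lie apart from the 3 WT points, and none of the regions passed adjustment over 53245 regions. The regions were picked by p on these same ranks, so the separation reflects the choice.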

How the data were processed

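ATAC-seq was performed on 5000 sorted MuSCs per mouse in 4 Nedd4L-cKO and 3 WT samples, and groups were taken from the genotype labels. Per the submitters' processing notes, reads were trimmed with Trimmomatic 0.39, aligned to mm10 with BWA 0.7.17, filtered with SAMtools, cleared of duplicates with Picard 2.26.3, and peaks were called with MACS2 2.2.7.1. Per the file headers, each library was called alone, with a shift of -100 bp and a tag extension of 200 bp, a broad q cutoff of 0.1, a narrow cutoff of 0.05 and no control. The deposited broad peaks hold pileup (signal, tag coverage in the peak), fold enrichment (a ratio over local background), −log10 p-values and q-values, and a display score that was not used. Pileup is not scaled to depth, so ranks within a library were compared. Peaks reach statistical calls more easily with depth, and 14.4 to 20.1 M tags were kept per library.

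Peaks of all libraries were merged, and the highest peak of a library gave its value in a region. The TSS set was the 5′ end of each protein-coding span plus RefSeq starts, which 16456 of 20661 genes had. The 510 genes of chromosome 18 had only the span's end. The members and lists were chosen with earlier results of these data known. Genes were named by rule: the 10 densest with 5 or more members, the 5 with most, the 2 leading genes of each list and any with 0 where 3 or fewer had 0, the 3 strongest and longest members, the 5 lowest p in each direction, and Nedd4l. Genes with microRNA hairpins or lncRNA starts, the 3 longest genes without a member and further list genes were named after their values were seen. limma 3.58.1 (R 4.3.3) was fitted to all 53245 regions, and checked on simulated data. Exact permutation and sign-flip tests used 1 value per library (Python 3.11.15). Alternatives were the peak threshold (−log10 q of at least 5), a cover of 50%, a TSS window of 2500 bp, other TSS sets, pileup, depth, replicate block and leaving out each library.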

Additional observations from a re-analysis of the deposited data

Results flagged for a closer look

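Among 19 sets of per-library values in the Nedd4L-cKO group of 4 that were checked for a library standing apart, 2 had one, and chance alone flags about 1 in 20 groups. Both were Nedd4L-cKO replicate 4, the library with most tags. Its median called length in members was 964 bp, and the gap to the next library took up 0.913 of the group's range. Its members covered 21.7 Mb, with a gap of 0.918 of the range. The part of depth in this was not tested.

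Outside the autosomes, chromosome X held 253 gene-body regions called in all 7 libraries under the same rule. Their median length was 1170 bp, their median pileup percentile 24.6 and their median fold percentile 48.8. Over the libraries the median pileup percentile was 24.3 to 27.0, below the 41.9 to 42.3 of the autosomal members in each library. All mice were male, with 1 copy of this chromosome, and its part in the lower pileup was not tested.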

How the results depend on the processing

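The number of members depended on the calling threshold: 6710 with −log10 q of at least 5 and 12300 when a library's peaks had to cover 50% of a region, against 20860. The median distance to the nearest TSS was 27862, 28828, 31253, 20303, 34126 and 27918 bp under a threshold of 5, a cover of 50%, a 2.5 kb window, both span ends, outer 5′ ends alone and genes with a RefSeq start alone (the last 2 settings were chosen after seeing the data), against 29419 bp. The called-length difference from intergenic regions was 0 bp with both span ends, 22 bp with outer 5′ ends alone (exact permutation p = 0.0156) and -2.71 bp with RefSeq starts alone. The other 5 class differences kept their sign and call under every setting run, but not their size: at the threshold of 5 the differences from promoters were -14.1 points by fold and -253 bp in length, against -27.3 and -423, and with outer 5′ ends alone the pileup difference from intergenic regions was 5.09 points, against 3.33. Ranking among all peaks of a library turned the genotype difference in fold percentile to 0.0809.

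Leaving out each library gave genotype differences of 0.0193 to 0.194 points (pileup), -0.452 to -0.115 points (fold), -19 to 15.7 bp (length) and -0.410 to 0.352 Mb (covered length). Same-numbered samples did not deviate together (correlations of -0.12, 0.03 and -0.12), so the numbers were not taken as pairs. With the replicate block over 3 pairs, the length difference was -19 bp and the covered length -0.410 Mb (exact permutation p = 0.5 for both, smallest possible 0.25), and limma called 0 regions. limma called 0 members under all other settings, with 285 to 1352 members at an unadjusted p under 0.05 and a lowest adjusted p of 0.854. Of the 10 densest genes, 0 stayed in the first 10 at the threshold of 5, 4 with a cover of 50% and 5 to 9 under the other settings. Of the 5 genes with most members, 3 stayed in the first 5 at the threshold of 5, with a cover of 50% and with RefSeq starts alone, and 5 under the rest. Nedd4l held 4, 14, 22, 23, 23 and 0 members under the 6 settings in the order above.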
